A study of Mus musculus with 2 samples.

Results

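Transcripts of lipid droplets and fatty acid metabolism were followed in the ureters of Rbpj-cKO and control mouse pups at postnatal day 4. The set holds 39 genes, chosen with earlier results of these data known, from the functions of triglyceride storage (16 genes), lipolysis (4 genes), fatty acid synthesis (9 genes) and fatty acid oxidation (10 genes), out of 21143 genes tested. They were represented by 58 of 39429 probes, of which 56 passed the filter on dim probes. For each of the 39 genes the probe used was well above background in all 4 RNAs, so no member was lost and none rested on a bound.

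The Rbpj-cKO pups carried Tbx18(cre/+);Rbpj(fx/fx), in which cre expressed from the Tbx18 locus recombines the floxed alleles of Rbpj, the DNA-binding partner of Notch receptors, in the lineage of the ureteric mesenchyme. The control pups carried Tbx18(+/+);Rbpj(fx/n.d.), so the groups also differed in a Tbx18 allele. All pups were of the NMRI strain. Two-colour arrays set an Rbpj-cKO RNA against a control RNA of the same labelled sex. Array 1 held the female pair, where Rbpj-cKO was labelled red with Alexa647 and control green with Alexa555, and array 2 held the male pair in the opposite orientation. Each value therefore rests on n = 2 arrays, and this number limits the precision. The labels do not say how many animals gave an RNA or whether RNA was pooled. The p-values of limma therefore rest on the spread between these 2 pairs, moderated by a prior taken from all genes. Of 4.35 total degrees of freedom, 1 comes from the pairs of the gene itself. Sex, dye orientation and replicate cannot be told apart. A pair of log2 ratios, Rbpj-cKO over control, is given for array 1 and then array 2, and a pair of log2 levels for the female and then the male RNA.

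Some RNAs stood apart or went against their labels. Rbpj was lower in the Rbpj-cKO RNA of both pairs, with log2 ratios of -0.92 and -1.10 (adjusted p = 0.0873 in limma), from a probe not placed here relative to the floxed exons. The Rbpj-cKO RNA labelled female held Y-linked transcripts, with Ddx3y 4.23 and Eif2s3y 4.26 above its control on the log2 scale. Xist, the transcript of the inactive X, was well above background in both RNAs of array 1 and in neither of array 2. Its probes had log2 ratios of -0.36 and 0.14 on array 1. Whether RNA of both sexes was mixed was not tested. The value on array 2, where given, is the one without the Rbpj-cKO RNA labelled female. Liver transcripts were concentrated in the male control RNA: the 17 measured liver markers had a median log2 ratio of 0.46 on array 1 and -2.46 on array 2. Fat cell markers were concentrated in the female control RNA, as given below with the results they move with. All 8 smooth muscle and all 10 urothelium markers passed the filter on dim probes. So did all 12 endothelium markers, 17 of 20 liver markers and 28175 of 39429 probes, so passing cannot check the tissue label.

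Fat cells keep triglyceride in droplets coated by perilipins, fill them with fatty acids taken from lipoproteins or made from glucose, and release them through a sequence of lipases. Fatty acids are activated to acyl-CoA, enter mitochondria through the carnitine shuttle and are shortened there by beta-oxidation, which brown fat uses to make heat. Smooth muscle and epithelium also hold small droplets and oxidise fatty acids, so many of these genes are not specific to fat.

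Most of the lipid genes had lower signals in Rbpj-cKO ureters than in control ureters, and the ratios were further from 0 in the female pair. The genes were chosen knowing such results, so the shares below describe them and are no independent evidence. Of the 39 genes, 32 (82.1%) were lower in the Rbpj-cKO RNA on both arrays, against 29.8% of all genes, and 3 (Elovl5, Elovl6 and Cpt1a) were higher on both, against 31.7% of all genes, a count that was 0 with median centring. At least 1.5-fold lower on both arrays were 12 members (30.8%), against 0.795% of all genes, and 0 members were at least 1.5-fold higher, against 0.402%. The count of 12 was also that of array 2 alone, and array 1 alone gave 29. The median log2 ratio of the members was -1.15 on array 1 and -0.28 on array 2, where the median of all genes was -0.01 and 0.01. In bulk RNA, fewer cells of a type and less RNA per cell cannot be told apart. No member passed the adjusted threshold of limma over all genes (0 of 39, smallest adjusted p 0.159), and Ucp1, not among the lipid genes, was the 1 gene called (0.00473% of genes), while 5 of the alternative settings called 0 genes. At an unadjusted p under 0.05, limma gave 26 members lower (66.7%), against 7.02% of all genes, and 0 higher, against 6.98%. With eBayes' trend and robust settings 0 members were called as well, among 95 genes called.

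**Figure D1:**
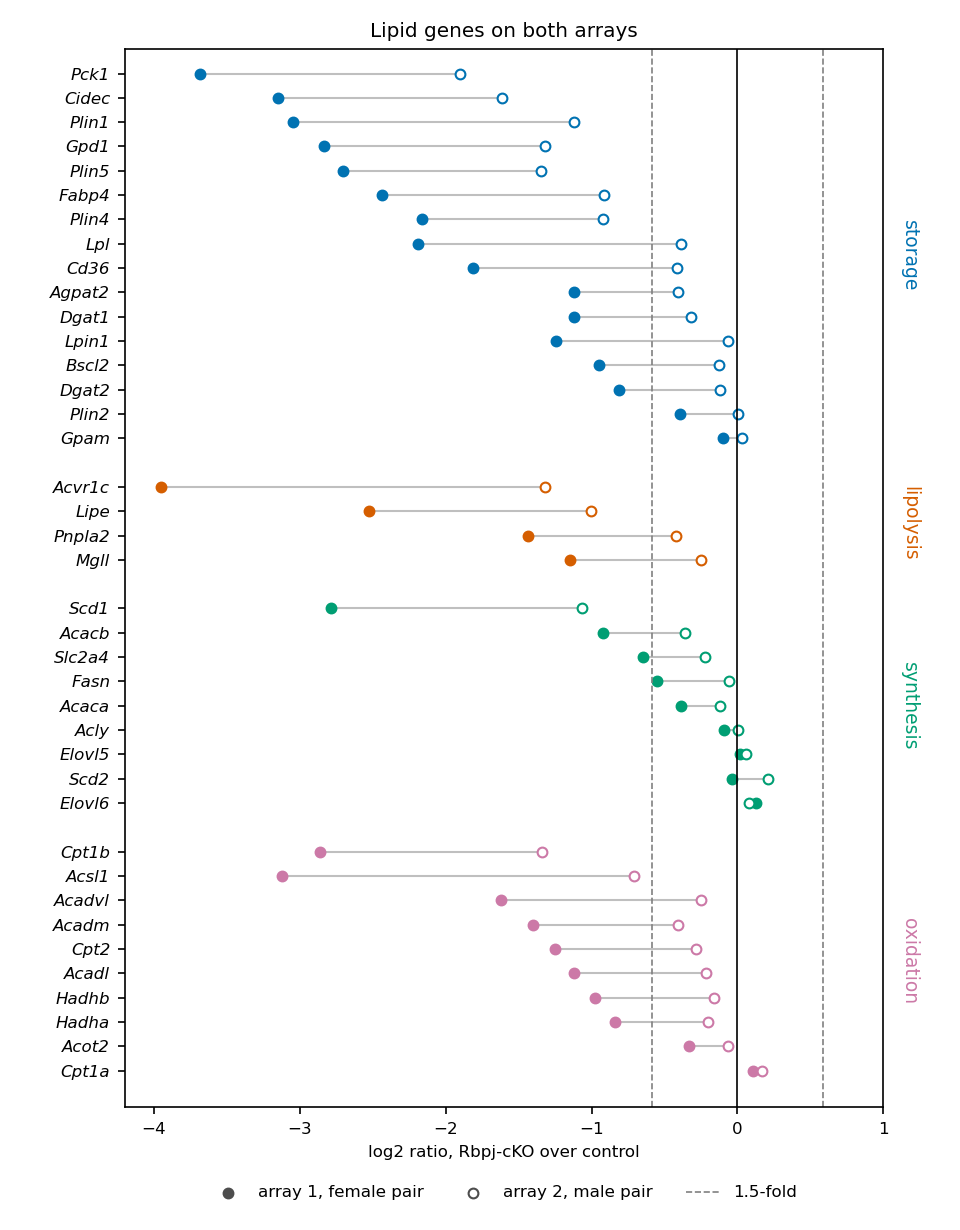
Log2 ratio of Rbpj-cKO over control for each of the 39 genes, by function; filled points are array 1 (female pair), open points array 2 (male pair), the grey line joins them and dashed lines mark 1.5-fold. Filled points lie further from 0 than open points for 36 of the 39 genes, and Scd1 is the 1 synthesis gene past 1.5-fold on both arrays.

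The functions held unequal shares of low members. Lipolysis genes had a median of the mean log2 ratios of -1.35, storage genes -1.20, oxidation genes -0.72 and synthesis genes -0.25, against 0.00 for all genes. By array these medians were -1.98 and -0.71 for lipolysis, -1.99 and -0.41 for storage, -1.18 and -0.23 for oxidation and -0.39 and -0.06 for synthesis. At least 1.5-fold lower on both arrays were 7 of 16 storage, 2 of 4 lipolysis, 2 of 10 oxidation and 1 of 9 synthesis genes, beside the same 0.795% of all genes. The order of storage before oxidation before synthesis was the same on both arrays. The lipolysis median counts Acvr1c (mean log2 ratio -2.64), a receptor that restrains lipolysis, beside the lipases Lipe (-1.77), Pnpla2 (-0.93) and Mgll (-0.70). Pnpla2 and Mgll were less low than the storage median. The middle value of the lipases, that of Pnpla2 (-0.93), was less low than the storage median (-1.20). In the mean ratios lipolysis therefore comes before storage only with Acvr1c counted. The functions were assigned by hand and hold few genes, and no test was made between them.

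Of the 6 droplet proteins, 5 were lower in both pairs, against 29.8% of all genes. The median log2 ratios of the 6 were -2.43 (array 1) and -1.02 (array 2). Probe positions below are those of the scanner files (build mm9), and whether a probe lies in a coding exon or a UTR was not looked up. Cidec, which lets droplets exchange lipid and grow into the single large droplet of white fat, probed at chr6:113374630-113374689 (minus strand), had log2 levels of 11.80 (female) and 11.69 (male) in Rbpj-cKO RNAs, against 14.95 (female) and 13.31 (male) in control RNAs. Its log2 ratios were -3.15 and -1.62, a mean of -2.38 ± 1.08 (SD, n = 2; adjusted p = 0.16 in limma), or 5.21-fold lower. Plin1, the perilipin that guards the droplet of fat cells from lipases, probed at chr7:86866112-86866171 (minus strand), had levels of 10.93 and 11.45 in Rbpj-cKO RNAs, against 13.97 and 12.57 in control RNAs, with a mean log2 ratio of -2.09 ± 1.36 (adjusted p = 0.226). For both genes the Rbpj-cKO and control levels did not overlap, and the female control RNA was the highest of the 4. Both Rbpj-cKO levels lay below both control levels for 32 of the 39 members and for 20.8% of all genes, and above both for 1 member (Elovl5) and for 22.3% of all genes.

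The other perilipins had unequal ratios. Plin5, the perilipin of oxidative tissues that ties droplets to mitochondria, probed at chr17:56251025-56251084 (minus strand), had levels of 10.40 and 9.78 in Rbpj-cKO RNAs, against 13.11 and 11.13 in control RNAs (mean log2 ratio -2.03 ± 0.96, adjusted p = 0.168). Plin4, a perilipin of fat cells and muscle, probed at chr17:56240055-56240114 (minus strand), had levels of 12.05 and 12.54 in Rbpj-cKO RNAs, against 14.21 and 13.47 in control RNAs (-1.54 ± 0.88, adjusted p = 0.202). The Plin4 levels were separate too, with the 2 control RNAs closer together than for Plin1. Plin2, the perilipin that most cell types carry, probed at chr4:86302847-86302906 (minus strand), had levels of 14.51 and 14.43 in Rbpj-cKO RNAs, against 14.90 and 14.42 in control RNAs. Its log2 ratios were -0.39 and 0.01, so that the groups overlapped and the pairs did not share a direction. Bscl2, which encodes seipin, the protein that helps droplets bud from the endoplasmic reticulum, was between them with -0.95 and -0.13.

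Promoter sequences were examined for letters that the low genes might share. RefSeq promoters (GRCm38.p6) were at hand for 30 of the 39 members, 39 promoters in all, each of 300 bases from 250 before to 50 after a transcript start. Searched on both strands were the letters AGGTCA followed by 1 base and AGGTCA again (a direct repeat bound by PPAR), TTGCNNAA (bound by C/EBP), TCACNCCAC (bound by SREBP) and GTGGGAA (bound by RBPJ), with N for any base. The PPAR letters were in 0 of the 39 member promoters and in 0.0396% of all 32851 promoters. The C/EBP letters were in 3 member promoters (Plin1, Cidec and Gpam) and in 10.8% of all, the SREBP letters in 1 (Acsl1) and in 1.24% of all, and the RBPJ letters in 1 (Plin2) and in 6.38% of all. Shown are the 250 bases before the start of those promoters whose match lies wholly before it, with the matched letters in capitals; the match of Gpam lies after its start.
Cidec, chr6:113434765-113435014 (- strand): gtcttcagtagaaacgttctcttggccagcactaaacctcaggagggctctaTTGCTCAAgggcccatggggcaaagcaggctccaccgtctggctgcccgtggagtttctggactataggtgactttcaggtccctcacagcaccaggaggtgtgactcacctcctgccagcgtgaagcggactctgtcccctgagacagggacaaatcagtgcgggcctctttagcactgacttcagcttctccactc
Plin1, chr7:79732777-79733026 (- strand): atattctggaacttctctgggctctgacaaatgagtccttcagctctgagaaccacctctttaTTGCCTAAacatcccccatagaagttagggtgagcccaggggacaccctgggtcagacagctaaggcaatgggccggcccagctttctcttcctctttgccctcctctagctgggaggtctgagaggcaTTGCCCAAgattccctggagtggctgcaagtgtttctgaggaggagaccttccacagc
Plin2, chr4:86670060-86670309 (- strand): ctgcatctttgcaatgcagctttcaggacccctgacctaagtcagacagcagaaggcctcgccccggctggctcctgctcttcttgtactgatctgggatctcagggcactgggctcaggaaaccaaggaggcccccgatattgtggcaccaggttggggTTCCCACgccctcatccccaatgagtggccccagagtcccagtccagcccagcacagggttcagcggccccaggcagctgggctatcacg
Acsl1, chr8:46490716-46490965 (+ strand): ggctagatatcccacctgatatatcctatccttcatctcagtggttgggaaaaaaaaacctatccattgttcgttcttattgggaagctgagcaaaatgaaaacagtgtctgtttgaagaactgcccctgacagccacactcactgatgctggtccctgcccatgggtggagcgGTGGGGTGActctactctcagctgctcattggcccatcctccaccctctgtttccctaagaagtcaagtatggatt
Counted back from the start, the Cidec match spans -198 to -191, those of Plin1 -187 to -180 and -58 to -51, that of Plin2 -90 to -84 and that of Acsl1 -76 to -68. The genes whose windows hold C/EBP letters had mean log2 ratios of -2.38 (Cidec), -2.09 (Plin1) and -0.03 (Gpam). A match describes the letters and is not a site.

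**Figure D2:**
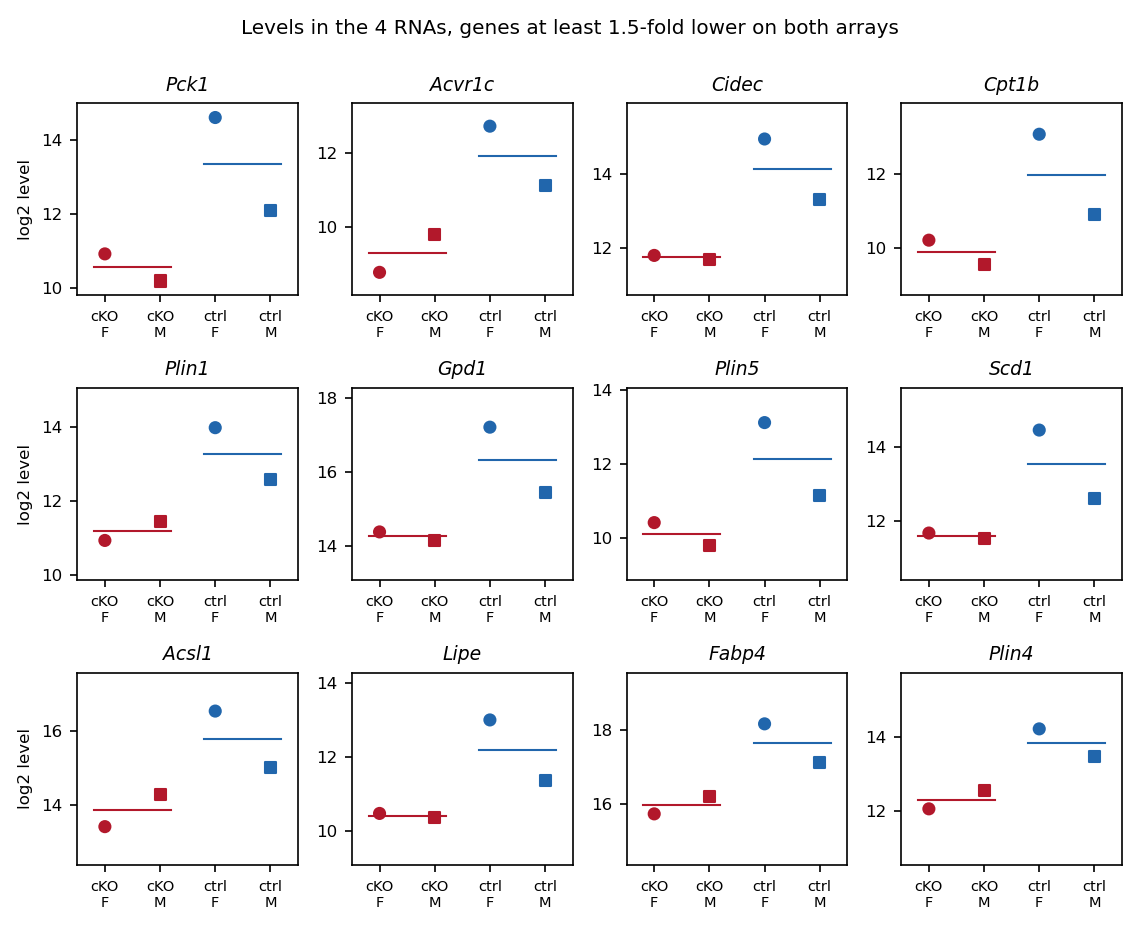
Normalised log2 level of the 12 genes at least 1.5-fold lower on both arrays, in Rbpj-cKO (cKO, red) and control (ctrl, blue) RNAs, circles for the female (F) and squares for the male (M) pair, bars for the mean of 2 RNAs; all panels span the same log2 range. In each panel both Rbpj-cKO RNAs lie below both control RNAs, and the female control RNA is the highest. The genes were picked by these same values, so the separation follows largely from that choice. Of all genes, 20.8% had both Rbpj-cKO levels below both control levels.

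Genes that bring fatty acids into the cell were lower in both pairs. Fabp4, the fatty acid carrier of fat cells and of capillary endothelium, probed at chr3:10204452-10204511 (minus strand), had levels of 15.74 and 16.22 in Rbpj-cKO RNAs, against 18.17 and 17.13 in control RNAs. The log2 ratios of Fabp4 were -2.43 and -0.91 (mean -1.67 ± 1.07, adjusted p = 0.225). Lpl, the lipase on capillary walls that frees fatty acids from lipoproteins, had levels of 15.35 and 15.64 in Rbpj-cKO RNAs, against 17.54 and 16.03 in control RNAs. Lpl's levels were separate between the genotypes, with ratios of -2.19 on array 1 and -0.39 on array 2, and its second probe gave -1.68 and -0.43. Cd36, a membrane protein that takes up fatty acids, behaved alike with -1.81 and -0.41.

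Triglyceride assembly held both the member with the lowest mean ratio, Pck1, and the member with the mean nearest to 0, Gpam. Pck1, whose enzyme makes the glycerol backbone in fat cells and glucose in liver and kidney, probed at chr2:172984307-172984366 (plus strand), had levels of 10.93 and 10.20 in Rbpj-cKO RNAs, against 14.62 and 12.10 in control RNAs. The mean log2 ratio of Pck1 was -2.79 ± 1.26 (adjusted p = 0.159), or 6.93-fold lower, with -3.69 and -1.90 on the 2 arrays. Liver markers, of cells that also express Pck1, had median log2 ratios of 0.46 on array 1 and -2.46 on array 2. Kidney tubule markers had 0.73 and 0.28, and 8 of 10 were higher on both arrays, against 31.7% of all genes. Their summed level was 0.886 (female pair) and 0.837 (male pair) times that of control. Aqp1, the brightest and the 1 lower marker, weighs most in that sum. The part of either cell type in the Pck1 ratio was not tested. Gpd1, the cytosolic glycerol-3-phosphate dehydrogenase, probed at chr15:99555334-99555393 (plus strand), had levels of 14.39 and 14.14 in Rbpj-cKO RNAs, against 17.22 and 15.46 in control RNAs (-2.07 ± 1.07, adjusted p = 0.181). Of the acyltransferases, Agpat2 had -1.12 and -0.40, Dgat1 -1.12 and -0.32 and Dgat2 -0.81 and -0.12, and Lpin1, the phosphatidate phosphatase, -1.24 and -0.06. Gpam, the mitochondrial enzyme that attaches the first acyl chain, had levels of 12.78 and 12.53 in Rbpj-cKO RNAs, against 12.87 and 12.50 in control RNAs. Its log2 ratios of -0.10 and 0.03 had opposite signs, and the mean of -0.03 ± 0.09 was above 0 with the scanner's log ratio (6.5e-05), with the authors' deposited series table (0.013) and on array 2 alone, and was 0.156 without the female control RNA.

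All 4 lipolysis genes were lower on both arrays, against 29.8% of all genes. The lipases act in sequence: Pnpla2 (adipose triglyceride lipase) takes the first acyl chain, Lipe (hormone-sensitive lipase) the second and Mgll (monoacylglycerol lipase) the last. Lipe, probed at chr7:26165828-26165887 (minus strand), had levels of 10.46 and 10.35 in Rbpj-cKO RNAs, against 12.99 and 11.35 in control RNAs (mean log2 ratio -1.77 ± 1.08, adjusted p = 0.213). Pnpla2 had levels of 14.17 and 13.94 in Rbpj-cKO RNAs, against 15.61 and 14.37 in control RNAs (-0.93 ± 0.72, adjusted p = 0.273). The levels of both lipases were separate between the genotypes, and Pnpla2, which most tissues express, had the smaller ratio. Mgll had -1.15 and -0.25, but the means of its 4 probes ranged from -0.70 to -0.02. The probe at -0.02, with 0.04 on array 1 and -0.07 on array 2, was well above background in all 4 RNAs and did not share the lower ratios of the other 3. A second Lipe probe, well above background in none of the 4 RNAs, was left out.

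Acvr1c encodes ALK7, an activin-type receptor of fat cells whose signal restrains lipolysis in mice. Its probe lies at chr2:58119888-58119947 (minus strand), and its levels were 8.77 and 9.80 in Rbpj-cKO RNAs, against 12.72 and 11.12 in control RNAs. The log2 ratio of Acvr1c on array 1, -3.95, was the lowest single value of any member, and that on array 2 was -1.32 (mean -2.64 ± 1.86, adjusted p = 0.246, 6.22-fold lower). Its second probe gave -4.06 and -1.30.

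Fatty acid synthesis was the function with the median ratio closest to 0. Scd1, the stearoyl-CoA desaturase of fat and liver, probed at chr19:44469387-44469446 (minus strand), was the exception, with levels of 11.67 and 11.54 in Rbpj-cKO RNAs, against 14.46 and 12.60 in control RNAs (mean log2 ratio -1.93 ± 1.21, adjusted p = 0.221). Scd2, the desaturase of most other tissues of the young mouse, probed at chr19:44381024-44381083 (plus strand), had levels of 15.10 and 15.22 in Rbpj-cKO RNAs, against 15.14 and 15.01 in control RNAs. Its log2 ratios of -0.04 and 0.21 had opposite signs. Acacb, the acetyl-CoA carboxylase on mitochondria whose product limits fatty acid import, had -0.92 and -0.36, against -0.39 and -0.12 for Acaca, the cytosolic enzyme of fatty acid synthesis. Fasn, the fatty acid synthase, had -0.55 and -0.06, and Slc2a4, the insulin-responsive glucose transporter GLUT4, -0.65 and -0.22. Acly, which supplies cytosolic acetyl-CoA, had levels of 15.23 and 15.23 in Rbpj-cKO RNAs, against 15.32 and 15.23 in control RNAs. The elongases had ratios near 0, with 0.02 and 0.06 for Elovl5 (mean 0.04 ± 0.03, adjusted p = 0.874) and 0.13 and 0.08 for Elovl6 (0.10 ± 0.04, adjusted p = 0.617).

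Of the 10 oxidation genes 9 were lower on both arrays, against 29.8% of all genes, most by moderate ratios. Cpt1b, the carnitine palmitoyltransferase of muscle and brown fat, probed at chr15:89246836-89246895 (minus strand), had levels of 10.21 and 9.56 in Rbpj-cKO RNAs, against 13.07 and 10.89 in control RNAs (mean log2 ratio -2.10 ± 1.08, adjusted p = 0.18, 4.29-fold lower). Cpt1a, the form of liver and most other tissues, probed at chr19:3385374-3385433 (plus strand), had levels of 15.09 and 15.28 in Rbpj-cKO RNAs, against 14.98 and 15.11 in control RNAs. The ratios of Cpt1a, 0.11 and 0.17, gave the highest mean of any member (0.14 ± 0.04, adjusted p = 0.501), with overlapping groups. Acsl1, the main acyl-CoA synthetase of fat cells and heart, probed at chr8:47621232-47621291 (plus strand), had levels of 13.41 and 14.29 in Rbpj-cKO RNAs, against 16.53 and 15.00 in control RNAs (-1.92 ± 1.71, adjusted p = 0.302). Its SD was the second highest of the 12 genes past the size rule, after Acvr1c.

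The mitochondrial enzymes after the shuttle were alike. The acyl-CoA dehydrogenases had -1.62 and -0.25 (Acadvl, very long chains), -1.12 and -0.22 (Acadl, long chains) and -1.40 and -0.41 (Acadm, medium chains). The subunits of the trifunctional protein had -0.84 and -0.20 (Hadha) and -0.98 and -0.16 (Hadhb), and Cpt2, the inner membrane partner of the shuttle, -1.25 and -0.28. None of these 6 reached 1.5-fold on array 2. For each of them both Rbpj-cKO levels lay below both control levels, as for 20.8% of all genes. Acot2, a mitochondrial thioesterase, had -0.33 and -0.06, and its near copy Acot1, outside the members, 0.28 and 0.45. Cross-hybridisation between such copies was not tested.

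**Figure D3:**
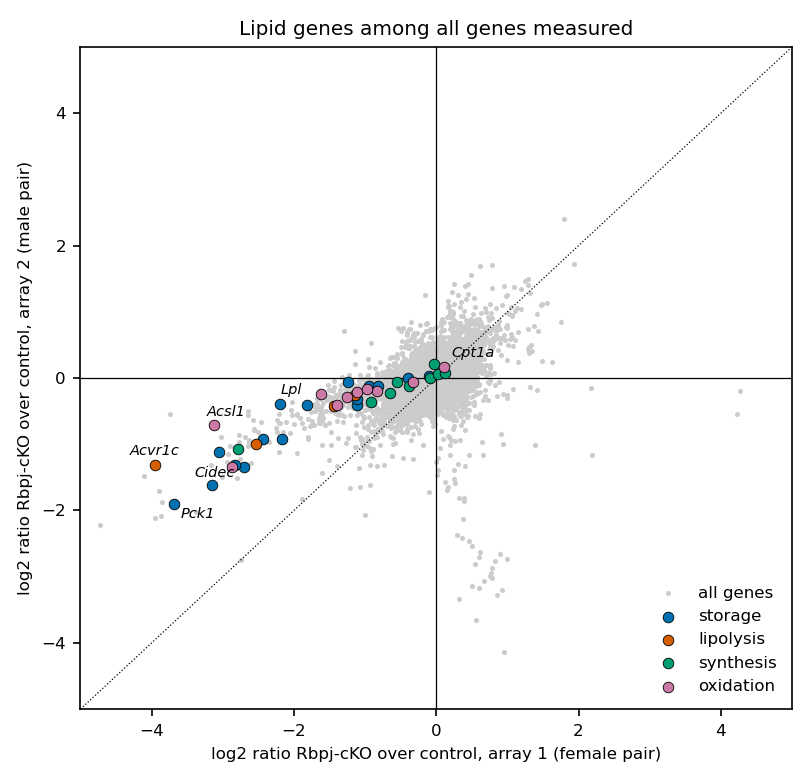
Log2 ratio of Rbpj-cKO over control on array 2 (male pair) against array 1 (female pair) for all 21143 genes (grey) and the 39 lipid genes (coloured by function); the dotted line marks equal ratios. The 29 lipid genes at least 1.5-fold lower on array 1 lie above the dotted line, with ratios on array 2 that are 5.03% to 51.5% of those on array 1.

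The gap between the pairs was wider among the control RNAs than among the Rbpj-cKO RNAs. The female control RNA held the highest level of the 4 RNAs for 35 of the 39 members, and for 29% of all genes. Between the Rbpj-cKO RNAs, female minus male, the median difference over the members was -0.03 on the log2 scale, and between the control RNAs it was 0.92, where all genes had -0.03 and 0.00. Pck1 showed the widest gap between controls, 2.52, against 0.73 between its Rbpj-cKO RNAs. The RNAs of one genotype carried different dyes, so these gaps are open to dye bias. Among the 29 members at least 1.5-fold lower on array 1, the log2 ratio on array 2 was a median of 29.4% of that on array 1. This share was 51.5% for Pck1, 51.3% for Cidec, 49.9% for Plin5 and 46.7% for Cpt1b, and 15.2% for Acadvl, 16.6% for Hadhb, 17.7% for Lpl and 5.03% for Lpin1. By function its median was 36.5% for 14 storage, 31.4% for 4 lipolysis, 38.3% for 3 synthesis and 22.6% for 8 oxidation genes. On array 1 alone 29 members were at least 1.5-fold lower, against 3.7% of all genes, and on array 2 alone 12, against 1.38%.

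Other genes of the same pathways, from lists written by hand, had medians closer to 0 than those of the members. These lists too were written with earlier results known. Of 25 other storage genes 16 were lower and 5 higher on both arrays (median of the mean log2 ratios -0.18), of 18 lipolysis genes 13 and 2 (-0.27), of 23 synthesis genes 14 and 5 (-0.09), and of 33 oxidation genes 23 and 3 (-0.35). By array these medians were -0.31 and -0.06 for storage, -0.37 and -0.16 for lipolysis, -0.12 and -0.08 for synthesis and -0.59 and -0.05 for oxidation, so on array 2 alone they lay closer to 0. None of these genes was called by limma (0 genes, smallest adjusted p 0.123), and at an unadjusted p under 0.05 there were 8, 7, 7 and 13 lower and 1, 1, 0 and 1 higher genes in that order of lists. Of all genes, 29.8% were lower and 31.7% higher on both arrays, and at that unadjusted p 7.02% were lower and 6.98% higher. The share of all genes at least 1.5-fold lower on both arrays was 0.795%. At least 1.5-fold lower on both arrays were Cidea (-3.37 and -2.02), a droplet protein of brown fat, and Gpat3 (-2.47 and -0.66), an acyltransferase, among storage genes. Among lipolysis genes these were the carboxylesterases Ces1d (-3.95 and -2.12) and Ces1f (-3.01 and -1.50) and G0s2 (-1.40 and -0.65), the protein that inhibits adipose triglyceride lipase. Thrsp (-2.61 and -1.28) was the 1 such synthesis gene, and Ppara (-1.63 and -0.63) and its coactivator Ppargc1a (-1.37 and -0.91), both regulators, were the 2 in the oxidation list. Enzymes of beta-oxidation outside the members had ratios like those of the members, such as Etfdh (-1.53 and -0.27), Acads (-1.15 and -0.31) and Hadh (-1.15 and -0.185).

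**Figure D4:**
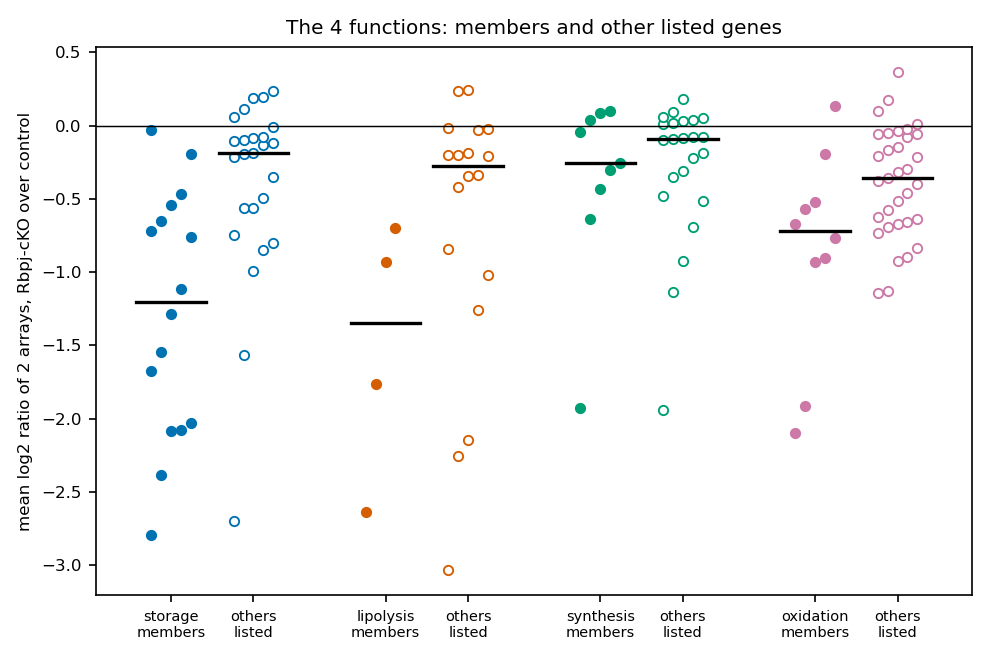
Mean log2 ratio of 2 arrays, Rbpj-cKO over control, for the members of each function (filled) and for the other listed genes of that function (open), with black bars at the medians. Medians of the members run from -1.35 for lipolysis to -0.25 for synthesis, and those of the other genes from -0.35 for oxidation to -0.09 for synthesis.

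Markers of fat cells outside the members were low in the same RNAs. Of 17 measured, 16 were lower and 0 higher on both arrays, against 29.8% and 31.7% of all genes. Medians were -2.64 on array 1 and -0.97 on array 2. The summed normalised level of these markers was 122041 to 129680 in the Rbpj-cKO RNAs, against 211988 to 632531 in the control RNAs. The highest sum was that of the female control RNA. Pparg (-0.42 and -0.08) and Adipor2 (-0.83 and -0.07) were the brightest of them in both Rbpj-cKO RNAs. The Rbpj-cKO sums therefore follow Pparg and Adipor2 more than the other markers. Adipoq, the hormone adiponectin, had -2.75 and -1.06, and Cfd -4.73 and -2.22. Ucp1, the uncoupling protein of brown fat, had -2.74 and -2.74 (adjusted p = 0.0248 in limma). Its levels were 13.45 and 10.38 in Rbpj-cKO RNAs, against 16.19 and 13.12 in control RNAs. The female Rbpj-cKO RNA thus lay above the male control RNA and the groups overlapped, so the call rests on 2 nearly equal ratios. Elovl3, the listed marker that did not pass the filter, was well above background in 1 control RNA and in no Rbpj-cKO RNA. The part of fat cell content in the lipid genes' ratios was not tested.

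Markers of other cell types that may use these genes were unequal. The counts below stand beside 29.8% of all genes lower and 31.7% higher on both arrays. Smooth muscle markers had medians of -0.09 and -0.35 (5 of 8 lower, 0 higher on both arrays), the second below the lipid genes' median of -0.28 on that array, with Des at -0.82 and -0.65. Their summed level was 642869 to 716122 in Rbpj-cKO RNAs, against 725155 to 831965 in control RNAs. Urothelium markers had 0.40 and 0.09 (0 of 10 lower, 7 higher), with 676943 to 726746 in Rbpj-cKO RNAs, against 539579 to 657293 in control RNAs. Endothelium markers, of cells that also express Fabp4, Cd36 and Gpihbp1, had medians of -0.22 and -0.10 (9 of 12 lower and 0 higher on both arrays), with summed levels of 99296 to 99766 in Rbpj-cKO RNAs, against 107098 to 130982 in control RNAs. Macrophage markers had -0.06 and -0.01 (4 of 10 lower, 1 higher), with 34535 to 35787 in Rbpj-cKO RNAs, against 34885 to 35719 in control RNAs. Skeletal muscle markers, of cells that express Cpt1b and Slc2a4, had -0.23 and -0.07 (5 of 9 lower, 2 higher), with 47895 to 52592 in Rbpj-cKO RNAs, against 59437 to 59734 in control RNAs. At least 1.5-fold lower on both arrays were 2 of the 9 (22.2%), Myh8 (-1.51 and -1.24) and Ckm (-0.82 and -0.79), against 0.795% of all genes. The muscle markers Myh1, Myh2, Myh3 and Ttn did not pass the filter. Liver markers summed to 75127 to 93785 in Rbpj-cKO RNAs, against 73572 (female) and 133507 (male) in control RNAs. Trf (-0.07 and 0.29) and Rbp4 (-0.05 and 0.36) were the brightest of them in each RNA and weigh most in these sums. Of 10 kidney tubule markers, with positive medians, 8 were higher and 1 lower on both arrays. At least 1.5-fold higher on both were 3 (Kap, Lrp2 and Miox), against 0.402% of all genes. Their summed level was 27522 to 27864 in Rbpj-cKO RNAs, against 31437 to 32865 in control RNAs. That sum follows Aqp1, the brightest and the 1 lower marker, with log2 levels of 14.50 and 14.53 in Rbpj-cKO RNAs, against 14.81 and 14.88 in control RNAs. The part of these cell types was not tested.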

How the data were processed

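RNA of mouse ureters was measured on 2 two-colour Agilent arrays with 4 spots per probe. The deposited scanner files hold spot intensities made with Agilent Feature Extraction 10.7.3.1, per the submitters' processing notes. Their log ratio is on a log10 scale with red on top: it lay within 0.02 of the quotient of the deposited processed signals at 93.5% of gene spots. The authors' deposited series table holds a score of unstated scale, centring and direction. With 0 values between -1 and 1 and medians of 1 and 1 it was read as signed fold changes, for 1 alternative only (r of 0.777 and 0.686 with the scanner log ratios).

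Background was removed by normexp (offset 50) and dye bias by loess, with control spots at weight 0 and outlier spots (3.34% and 3.12%) left out. Probes stayed if over 50% of their spots exceeded background clearly, on both arrays, for 1 genotype, and the brightest stood for its gene. Levels are log2 values per channel after that background removal and loess, followed by Aquantile scaling between arrays. They are open to dye bias and not comparable between genes. Limma 3.58.1 (R 4.3.3; eBayes, two-sided, Benjamini-Hochberg at 0.05 over 21143 genes, 1 residual degree of freedom) tested Rbpj-cKO over control, after a test on simulated data. Gene names were those of RefSeq GRCm38.p6 where an accession matched (28328 probes). Members and lists were chosen with earlier results of these data known. The rule for names allowed all members, list genes that differed at least 1.5-fold the same way in both pairs or had the largest ratios, and any cell type marker or transcription factor, of which some are named; Acot1, Acads, Hadh and Etfdh were named after their values were seen. Alternatives changed the background, normalization, filter, probe choice, gene names, prior, pairing, input table and RNAs used.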

Additional observations from a re-analysis of the deposited data

Results flagged for a closer look

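Opposite signs in the pair labelled female and the pair labelled male drew attention to 4 of the 39 lipid genes, and 38.5% of all genes had opposite signs. Plin2, the perilipin of most cell types, had log2 ratios of -0.39 (female pair) and 0.0070 (male pair). Gpam, the first acyltransferase of triglyceride assembly, had -0.095 (female) and 0.033 (male). Acly, the source of cytosolic acetyl-CoA, had -0.091 (female) and 0.0020 (male). Scd2, a desaturase, had -0.038 (female) and 0.21 (male). In 0 of them did both values pass 1.5-fold. With 1 pair for each labelled sex, a difference by sex was not tested.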

How the results depend on the processing

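Limma called 0 members under each of 12 alternatives that allow a test, among them the 4 channels with no replicate block, which ignores that each array pairs 2 RNAs. Over all genes limma called 1, 95 with the trend and robust settings, and 0 under 5 alternatives: median centring, the 4 channels, the deposited series table, the scanner log ratio, and loess followed by scaling. No member at least 1.5-fold lower on both arrays reversed its mean under any alternative, and 0 members were at least 1.5-fold higher under any. The count at least 1.5-fold lower on both arrays, 12, was 9 at a 2-fold threshold. Without replicate 1 (array 1) it was 12, and without replicate 2 (array 2) it was 29. The count lower on both arrays, 32, ranged from 32 to 36. The count higher on both arrays, 3, was 0 with median centring, and 7 and 3 without replicate 1 and without replicate 2. With 1 array left, medians ranged from -1.99 to -0.41 for storage, -1.98 to -0.71 for lipolysis, -0.39 to -0.06 for synthesis and -1.18 to -0.23 for oxidation. Some alternatives that left out 1 RNA were chosen after seeing the data. Without the female control RNA, 12 members were at least 1.5-fold lower than the male control in both Rbpj-cKO RNAs, against 230 of 21143 genes. In that setting 6 members were higher than the male control in both, by any amount, and the share of all genes was not counted. Without the male control RNA, 28 members were at least 1.5-fold lower than the female control in both, against 606 of 21143 genes.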

Other observations

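Transcription factors that govern fat cell genes, from a list written with earlier results of these data known, had smaller ratios than most droplet genes. Of 14 measured, 11 were lower and 1 (Klf5) was higher on both arrays, with medians of -0.61 on array 1 and -0.20 on array 2. Limma called 0 of them (smallest adjusted p 0.232), and at an unadjusted p under 0.05 there were 7 lower and 0 higher. Ebf2, a factor of brown fat precursors, was at least 1.5-fold lower on both arrays, with log2 levels of 10.92 and 11.01 in Rbpj-cKO RNAs, against 12.92 and 11.70 in control RNAs. Cebpa, a factor of mature fat cells, had levels of 11.85 and 11.89 in Rbpj-cKO RNAs, against 13.52 and 12.36 in control RNAs. Ebf2 and Cebpa had both Rbpj-cKO levels below both control levels, as had 20.8% of all genes, with the female control RNA the highest. Pparg, the nuclear receptor that many droplet genes depend on in fat cells, had -0.42 and -0.08, and Nr1h3, the sterol receptor LXR alpha, had -1.62 and -0.44. Zfp423 (-0.24 and 0.17) and Cebpd (-0.07 and 0.08) had opposite signs on the 2 arrays.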
